A study of Danio rerio with 14 samples.

Results

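In a few stretches of the zebrafish genome, peaks of the histone variant H2A.Z stood so close together that they formed runs. After treatment with the flame retardant TDCIPP 37.4% of the peaks in these runs were called higher than in DMSO, against 1.21% of all peaks. These calls were unevenly spread: 11 of 34 runs held at least 1, and 14 runs had a median change below 0. After 5-AzaC most of the runs were lower, as were most peaks. A peak was placed in a run when at least 9 other peaks of the same table and chromosome started within 50 kb of it, and such peaks up to 50 kb apart were joined. They were chosen by the positions of the called peaks, on chromosomes 1 to 25 and without chromosome 4 from 25 Mb onwards; H2A.Z levels enter only through which peaks were called. The rule found 305 of 29854 peaks (1.02%) in the table of 5-AzaC against DMSO and 297 of 28988 peaks (1.02%) in the table of TDCIPP against DMSO.

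H2A.Z is a variant of histone H2A that replaces it in some nucleosomes, most often beside gene starts and at enhancers. In the early zebrafish embryo, nucleosomes with H2A.Z mark DNA that is kept free of methylation before the embryo's own genes are switched on. 5-AzaC (5-azacytidine) is a cytidine analogue that blocks DNA methyltransferases, and TDCIPP belongs to the organophosphate flame retardants. The title of the study concerns repetitive elements that compete for H2A.Z when they are no longer silenced, and the comparisons ask where H2A.Z is gained and lost under each compound.

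Wild-type AB/Tuebingen embryos, around 50 per well, were profiled at 6 hours post fertilization (hpf) by CUT&Tag, in which an antibody guides a transposase to the chromatin it binds, with around 10000 cells per library. There were 3 samples treated with 100 µM 5-AzaC, begun at the 1-cell stage, 2 samples treated with 3.12 µM TDCIPP, begun at 0.75 hpf, and 3 samples in 0.1% DMSO as the control. Cells of whole embryos were profiled together, so the values are averages over all cell types present at that stage. The 6 samples with H2A.Z overexpression, of 14 in all, were not analysed here. Both tables hold one log2 level per peak for each group and none for a single library, so no SD or n can be given for a peak, the depth of the libraries is unknown, and the spread between replicates enters only through the authors' deposited p-values. Both comparisons share the same DMSO libraries. With 2 and 3 samples whose separate origin is not stated, that spread may be technical.

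For 5-AzaC the 305 peaks formed 36 runs on 19 chromosomes, and for TDCIPP the 297 peaks formed 34 runs on 20 chromosomes. Most runs were short. For 5-AzaC 5 runs had a single member, 18 had 2 to 9 members and 13 had 10 or more, and for TDCIPP there were 7, 15 and 12 such runs. The long runs, those with at least 10 members, nevertheless held 220 of the 305 members for 5-AzaC and 226 of the 297 for TDCIPP. Runs of both tables that overlapped were treated as 1 locus and named by chromosome and a letter, which gave 43 loci. Of these, 27 had a run in both tables, which is 75% of the 5-AzaC runs and 79.4% of the TDCIPP runs, and 12 were long in both. On the excluded section of chromosome 4 a further 24 peaks met the density rule for 5-AzaC and 12 for TDCIPP, and on alternate or unplaced sequences 36 and 53 did.

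The longest run, 15b, covered 245 kb of chromosome 15 with 46 members in the 5-AzaC table (chr15:9631372-9876384 in GRCz11) and 249.1 kb with 49 members in the TDCIPP table (chr15:9634972-9884047). A second run on the same chromosome, 15a, lay at chr15:7195330-7291123 with 22 members for 5-AzaC and at chr15:7197143-7291131 with 21 for TDCIPP. Run 25a had 19 members in either table, at chr25:18781573-18878391 for 5-AzaC and chr25:18781563-18878247 for TDCIPP. Runs 11a (19 members for 5-AzaC and 16 for TDCIPP), 18b (15 in each) and 6a (15 and 14) followed. The TDCIPP table held more members than the 5-AzaC table in runs 1b (23 against 11), 8b (17 against 12), 11c (15 against 11) and 8c (13 against 11). Run 22b, with 15 members for 5-AzaC, had 4 for TDCIPP. What genes or repeats lie in these runs was not analysed here, because no annotation of the tables' build was at hand.

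In part of the runs the peaks were spaced at a recurring distance. The steps of all runs are pooled first, so runs with many members weigh most. Among steps of up to 10 kb between the starts of neighbouring peaks, 86 of 229 steps between members in the 5-AzaC table (37.6%) were 4 to 5 kb long, against 410 of 4622 steps between peaks of which neither was a member (8.87%). For TDCIPP the shares were 104 of 228 (45.6%) and 354 of 4301 (8.23%). For 5-AzaC the median of these steps was 4435 bp between members and 6052 bp between other peaks, and for TDCIPP it was 4417 bp and 6184 bp. The rule favours short steps as such, so the shorter median follows from it. The rule names no range of step length, but how far the density it requires favours 4 to 5 kb was not tested. Median steps were alike on several chromosomes: 8 of the 13 long runs for 5-AzaC and 8 of the 12 for TDCIPP had one between 4.2 and 4.9 kb. Neither this band nor the range of 4 to 5 kb was set in advance, and neither was tested. A median in the band need not mean even spacing. Run 10a counts towards it, with 27.3% of its steps within 10% of its median for either treatment.

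**Figure D1:**
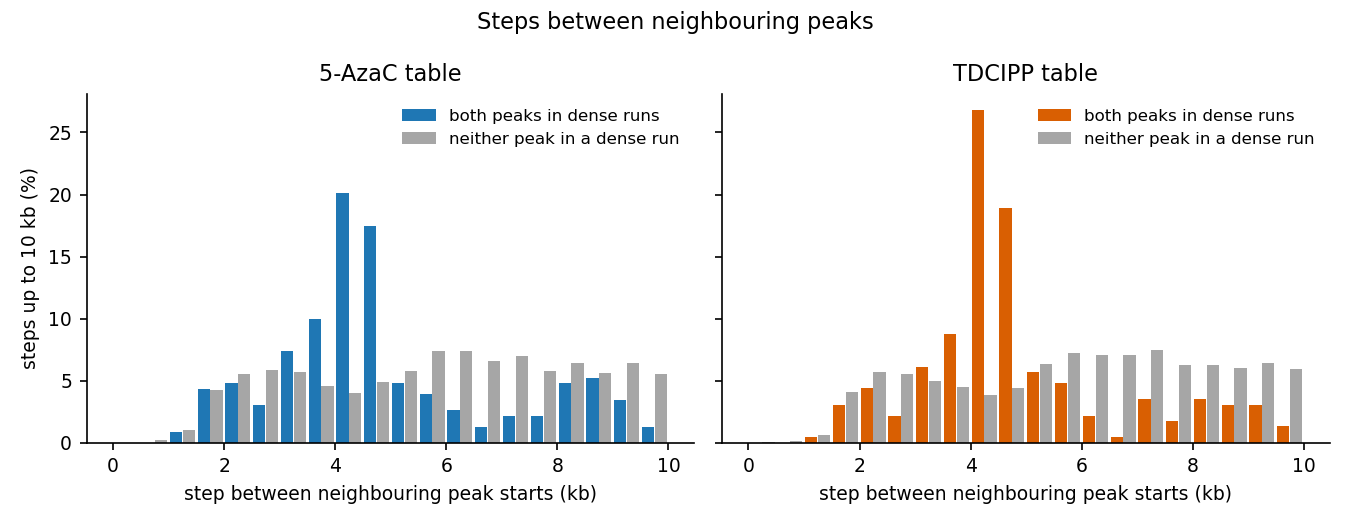
Percentage of steps between neighbouring peak starts (vertical axis) by step length in kb, in bins of 500 bp, for steps of up to 10 kb with 5-AzaC on the left and TDCIPP on the right; coloured bars are steps between 2 peaks in dense runs and grey bars steps between 2 peaks outside them. The coloured bars stand highest between 4 and 5 kb, where 37.6% and 45.6% of the steps in runs lie, and the grey bars are spread over the whole range.

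Run 13, on chromosome 13, was the most regular of the long runs. It had 12 members in both tables, at chr13:25313356-25365195 for 5-AzaC and chr13:25313353-25364845 for TDCIPP, and every step lay within 10% of the run's median step, which was 4690 bp for 5-AzaC and 4660 bp for TDCIPP. Its shortest and longest steps were 4303 and 4799 bp for 5-AzaC, and 4287 and 4775 bp for TDCIPP. Its peaks were alike in width too, with a median of 1340 bp for 5-AzaC and 1349 bp for TDCIPP, and only the last peak was much narrower, at 730 bp and 396 bp. A run was called regular when at least 50% of its steps lay within 10% of the median step. By that measure 4 of 13 long runs were regular for 5-AzaC (13, 6a, 15b and 25a) and 7 of 12 for TDCIPP, where 8b, 11c and 15a joined them. Of all runs with a step, 11 of 31 were regular for 5-AzaC and 12 of 27 for TDCIPP. These counts include runs with a single step, which are regular by definition. Run 6a had 64.3% of its steps near a median of 4710 bp for 5-AzaC and 69.2% near 4670 bp for TDCIPP. In run 15b 57.8% of steps were near 4279 bp for 5-AzaC and 62.5% near 4249 bp for TDCIPP, with gaps of up to 21156 and 21164 bp between stretches of even spacing.

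Other long runs were dense without such regularity. Run 18b had the shortest median step, 2073 bp for 5-AzaC and 2065 bp for TDCIPP, with 42.9% of steps near it in either table. Run 8c had median steps of 8042 and 7309 bp, and run 11a of 5324 and 5413 bp, with at most 25% of steps near the median in each. No step of run 22b lay within 10% of its median of 7618 bp in the 5-AzaC table. Spacing depends on where peaks were called, and no genome sequence of the build was at hand to compare the DNA under neighbouring peaks.

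In DMSO embryos the members were stronger than the typical peak. On the log2 scale, their DMSO level had a median of 5.02 among the 5-AzaC members and 5.05 among the TDCIPP members, against 3.64 and 3.65 for all peaks. Their widths were near those of all peaks, with medians of 823 bp against 782 bp for 5-AzaC and 775 bp against 768 bp for TDCIPP. Run medians in DMSO ranged widely: run 10a stood at 7.76 and 7.77 in the 2 tables and run 8c at 6.89 and 6.92, whereas run 11a stood at 3.40 and 3.31.

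In TDCIPP-treated embryos H2A.Z was higher than in DMSO embryos at most members of the runs, while over all peaks the median was lower. The median log2 change (TDCIPP minus DMSO) was 0.95 over the 297 members, with the middle 50% between 0.15 and 1.46, and −0.53 over all peaks. Of the members, 238 (80.1%) had a change above 0, against 27.9% of all peaks. The median of the members stood 1.48 above that of all peaks. How the levels were scaled between libraries is not given, so the place of 0 is uncertain. The shares above 0, the calls and the ratios of summed signal depend on it. At a deposited FDR under 0.05, 111 members (37.4%) were called higher and 2 (0.673%) lower; over the whole table, 1.21% of peaks were called higher and 5.81% lower. The runs held 31.5% of all peaks called higher after TDCIPP and 0.119% of those called lower. With the log2 levels read as logs of mean normalised read counts and summed on the linear scale over 275.3 kb of peaks, their signal averaged 93.3 normalised reads per peak after TDCIPP and 49.6 in DMSO, a ratio of 1.88, and the same ratio over all peaks was 0.781. The share of all summed signal that fell in the runs was 6.67% in TDCIPP embryos and 2.77% in DMSO embryos. More H2A.Z per cell and more cells carrying it cannot be told apart in such samples.

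Members also had an adjusted value more often: 87.5% of them lay inside the authors' FDR adjustment for TDCIPP, against 59.3% of all peaks. Among peaks inside the adjustment, 42.7% of members and 2.05% of all peaks were called higher. The shares called lower were 0.769% and 9.81%. Which libraries the consensus peaks of a table come from is not given in the sources used here, and a peak gained in a treatment could itself add to the density. The runs were therefore also placed by the other table: 295 peaks measured for TDCIPP started inside the runs found for 5-AzaC, of which 104 (35.3%) were called higher and 3 (1.02%) lower, with a median change of 0.85.

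In 5-AzaC-treated embryos most members were lower than in DMSO embryos, as were most peaks. The median log2 change (5-AzaC minus DMSO) was −0.63 over the 305 members, with the middle 50% between −0.89 and −0.29, and −0.70 over all peaks. The median of the members thus stood 0.07 above that of all peaks. How the levels were scaled between libraries is not given, so a shift shared by most peaks cannot be told from scaling. Of the members, 56 (18.4%) were called lower, against a background of 12.5% for the whole table, and 9 (2.95%) were called higher, against 0.301%. Among peaks inside the authors' adjustment the share called lower was 20.2% of members and 18.7% of all peaks, and at an FDR under 0.01 it was 1.31% of members and 2.06% of all peaks, so a larger share of lower calls in the runs was not a stable result. The 9 were 10% of all peaks called higher after 5-AzaC, and the 56 were 1.5% of those called lower. Members had an adjusted value in 90.8% of cases and all peaks in 67%. Summed over 296.1 kb, the linear signal averaged 45.2 normalised reads per peak after 5-AzaC and 49.8 in DMSO, a ratio of 0.907, against 0.657 over all peaks. Such a sum weights the strongest peaks, and some of the strongest members were higher after 5-AzaC. Among them were all 12 members of run 10a, the run with the highest median level in DMSO (7.76). The ratio without that run was not computed.

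**Figure D2:**
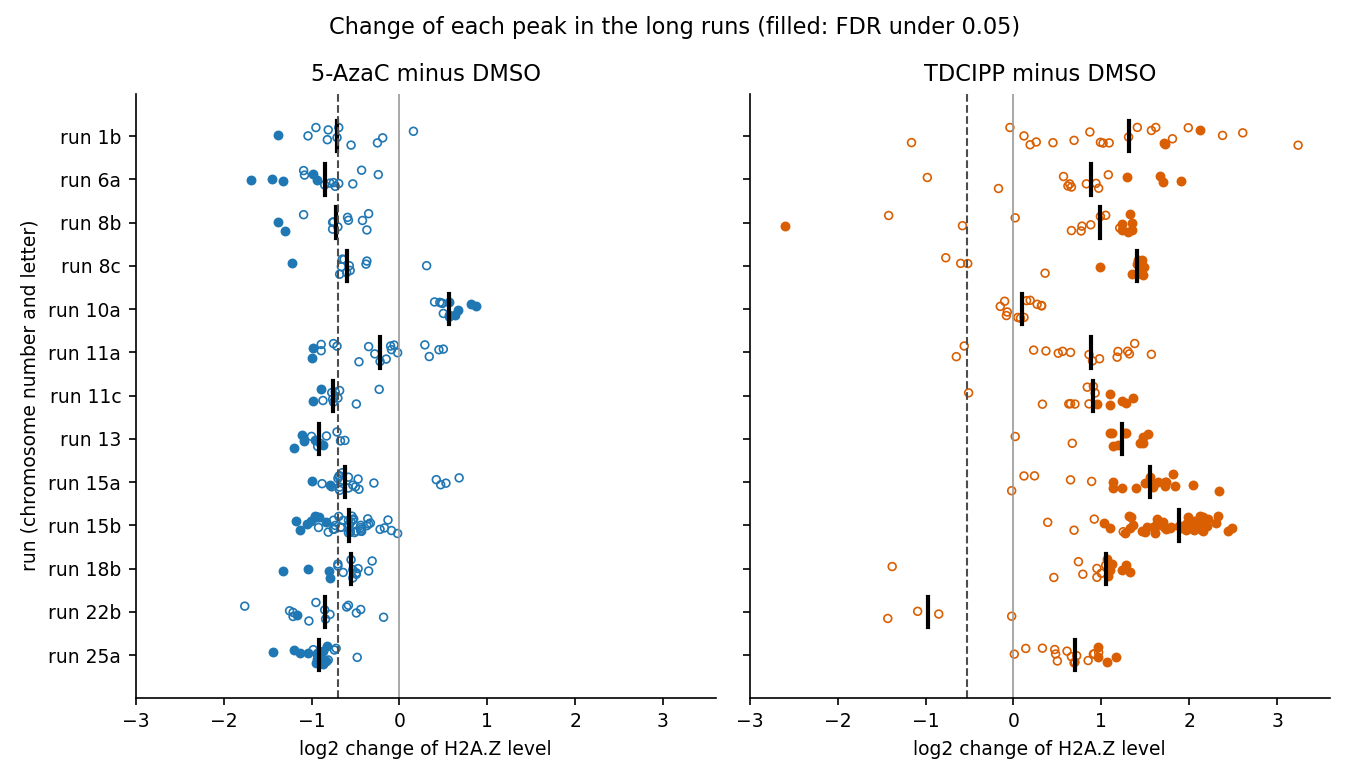
Log2 change of H2A.Z level (horizontal axis) of every peak in the runs that are long in at least 1 table, by run (vertical axis), for 5-AzaC minus DMSO (left) and TDCIPP minus DMSO (right); filled points have a deposited FDR under 0.05, black bars are run medians, the dashed line is the median of all peaks and the grey line is 0. After 5-AzaC every run median but that of run 10a lies below 0, and after TDCIPP all lie above 0 but that of run 22b, which has 4 members there.

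Run by run, nearly all calls after TDCIPP were increases. All 12 long runs had a median change above 0, and 10 of them held calls, 110 higher and 1 lower. Over all peaks 1.21% were called higher and 5.81% lower. Length was counted among the peaks of the TDCIPP comparison. Peaks gained or lost after TDCIPP could thus change which runs are long, which was not tested. Run 22b, long for 5-AzaC with 15 members, had 4 members for TDCIPP with a median change of −0.97 and is not among the 12. Run 15b led: its median level was 7.21 in TDCIPP embryos and 5.26 in DMSO embryos, its median change 1.89, all 49 members had a change above 0, and 45 were called higher. In run 15a the median level was 7.56 after TDCIPP and 5.84 in DMSO, the median change 1.55, and 16 of 21 members were called higher. Run 13 stood at 6.72 after TDCIPP and 5.43 in DMSO, with a median change of 1.23 and 10 of 12 members called higher. Run 8c reached 8.35 after TDCIPP, against 6.92 in DMSO, with a median change of 1.41 and 9 of 13 called.

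Fewer members were called in the other long runs. In run 18b 7 of 15 members were called higher after TDCIPP (median change 1.05), in run 11c 6 of 15 (0.91), in run 8b 6 of 17 (0.99), in run 6a 4 of 14 (0.89), in run 25a 4 of 19 (0.70) and in run 1b 3 of 23 (1.31). Run 1b was weak, with a median level of 4.51 after TDCIPP and 3.11 in DMSO, and its changes spread between −1.16 and 3.24. Its 3 called peaks all started beyond chr1:30853900, where the run found for 5-AzaC ended. Peaks gained after TDCIPP could have lengthened run 1b and raised its median, which was not tested. Run 11a had a median change of 0.88 with no call at a median DMSO level of 3.31. Run 10a, the strongest in DMSO, had a median change of 0.10 with no call.

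**Figure D3:**
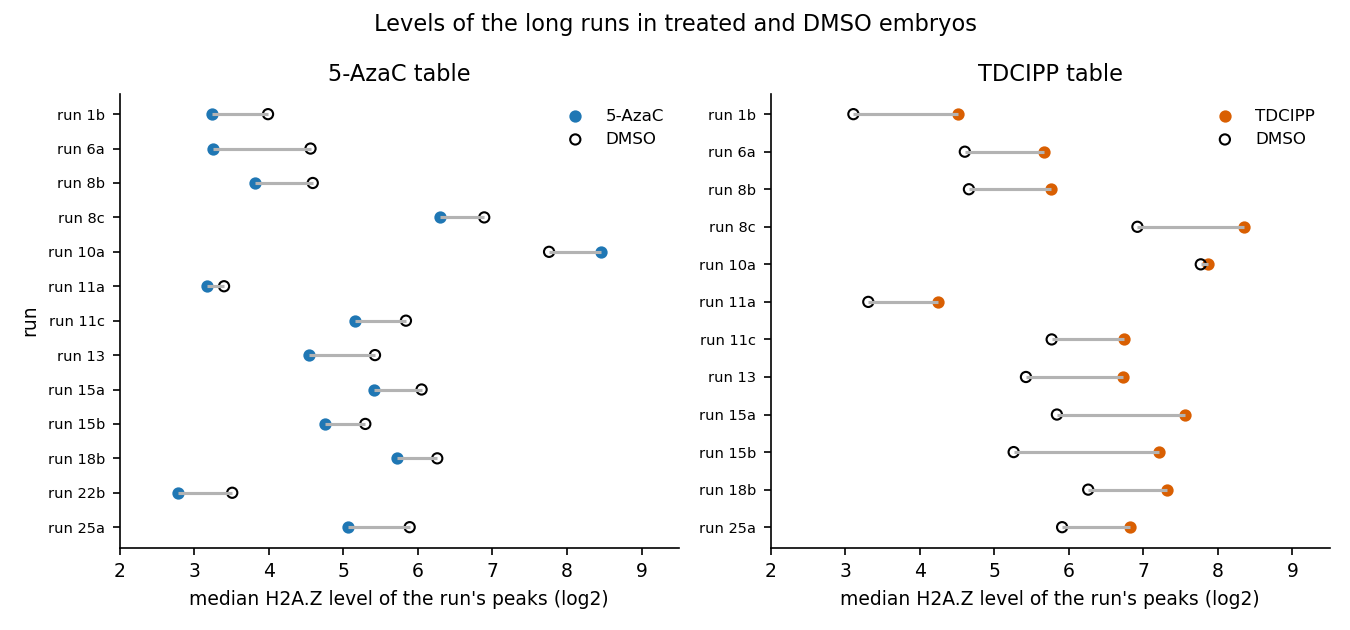
Median log2 H2A.Z level (horizontal axis) of the peaks of each long run (vertical axis) in treated embryos (filled) and DMSO embryos (open), with 5-AzaC on the left and TDCIPP on the right. The treated level of run 15b is 7.21 after TDCIPP and 4.75 after 5-AzaC, and its DMSO level is 5.26 and 5.30 in the 2 tables.

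After 5-AzaC 12 of the 13 long runs had a median change below 0, and they held 47 calls, all lower. Over all peaks 12.5% were called lower and 0.301% higher, and inside the authors' adjustment 18.7% were called lower. Calls of single runs were not tested against these shares. Run 25a held the most, with 13 of 19 members called lower, a median level of 5.06 in 5-AzaC embryos and 5.89 in DMSO embryos, and a median change of −0.92; after TDCIPP the same run had 4 members called higher. Run 15b had 9 of 46 called lower and a median change of −0.58, at 4.75 in 5-AzaC embryos and 5.30 in DMSO embryos. Runs 6a and 13 had 5 lower calls each, with median changes of −0.85 and −0.92, and run 18b had 4, with −0.55. Run 22b, without regular steps, had a median change of −0.85 and 1 lower call after 5-AzaC, and its 4 members of the TDCIPP table had a median change of −0.97 and no call. The 2 treatments are set side by side here without a test between them, since they share the DMSO libraries and no table compares them directly.

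Single peaks show the sizes involved. The largest change among members called higher was in run 15b at chr15:9786263-9786866, which in the authors' deposited table had a level of 7.32 in TDCIPP embryos and 4.83 in DMSO embryos, 2.49 higher on the log2 scale (FDR 5.08e-07). A peak of run 15a at chr15:7280414-7280801 had 7.13 after TDCIPP and 4.80 in DMSO in the authors' deposited table, a change of 2.34 at an FDR of 3.08e-05. The peak of run 13 with the largest called increase, at chr13:25341506-25342771, had 6.75 after TDCIPP and 5.21 in DMSO in the authors' deposited table, with a change of 1.53 at an FDR of 0.00853. Each lay among many called neighbours, 45 in run 15b, 16 in run 15a and 10 in run 13 with the peak itself. Peaks of a run share the same libraries, so these neighbours are not replicates of the peak. How reads that match several places were handled is not given.

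Within run 13 the levels were nearly flat. Across its 11 broad peaks the level after TDCIPP lay between 6.55 and 6.81, that in 5-AzaC embryos between 4.24 and 5.00, and that in DMSO embryos between 5.21 and 5.88 in the TDCIPP table. The 3 ranges did not overlap. They are ranges of group levels over peaks, so they do not show the spread between libraries, whose scaling is not given. Of the 12 members of the run, 10 were called higher after TDCIPP and 5 lower after 5-AzaC. The twelfth and narrowest peak had 4.22 after TDCIPP and 4.19 in DMSO in the authors' deposited table. On the change scale the broad peaks lay between 0.67 and 1.53 for TDCIPP and between −1.20 and −0.62 for 5-AzaC.

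In run 15b narrow and broad peaks differed in size of change. The 28 peaks under 1000 bp had a median change of 2.10 for TDCIPP, their median level being 7.20 in TDCIPP embryos and 5.03 in DMSO embryos, and 26 were called higher. The 21 peaks of 1000 bp or more had a median change of 1.59, their median level being 7.50 in TDCIPP embryos and 5.80 in DMSO embryos, and 19 were called higher. After 5-AzaC the 24 narrow peaks had a median change of −0.48 with 1 called lower, and the 22 broad peaks −0.66 with 8 called lower. Over all peaks of that comparison 12.5% were called lower. The median DMSO level was 4.96 for these narrow peaks and 5.8 for the broad ones. This split was made after the values were seen and was not tested.

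**Figure D4:**
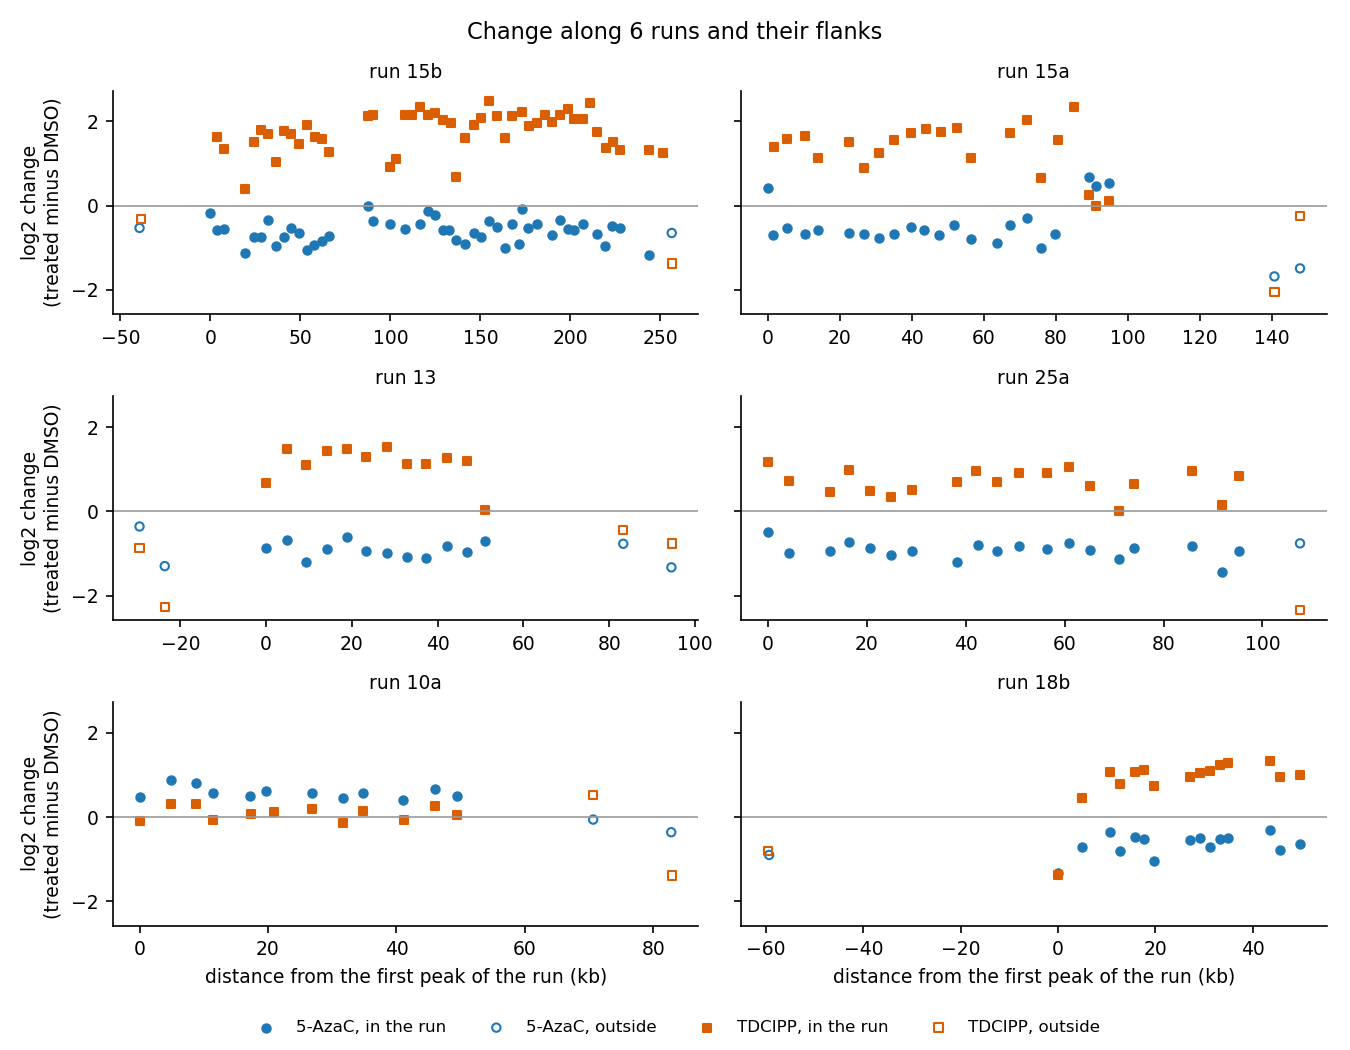
Log2 change (treated minus DMSO, vertical axis) of peaks by distance in kb from the first peak of the run (horizontal axis) for 6 runs and up to 60 kb to either side; circles are 5-AzaC, squares TDCIPP, filled symbols members of the run and open symbols other peaks. Among members of runs 15b, 13 and 25a the TDCIPP points lie at or above 0 and the 5-AzaC points below it, TDCIPP points outside these runs lie below 0, and in run 10a the 5-AzaC points lie between 0.40 and 0.87.

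Peaks just outside the runs had lower median changes after TDCIPP than the members, least so beside run 8c. Within 100 kb of the long runs of the TDCIPP table lay 68 other peaks, whose median change was −0.33, with 5 called higher and 3 lower, against a median of 1.12 for the members of those runs. The 5 higher calls all lay beside run 8c, whose 11 flanking peaks had a median change of 1.13 after TDCIPP. Beside run 15b the 2 flanking peaks had a median of −0.85, beside run 13 the 5 flanking peaks had −0.87, and beside run 25a the 6 had −0.62. Beside runs 11c, 6a and 11a, with 6 flanking peaks each, the medians were 0.255, 0.165 and −0.035. In DMSO the 68 flanking peaks had a median level of 4.06, against 5.05 for all members of the TDCIPP table. After 5-AzaC the 83 flanking peaks had a median change of −0.72, with 15 called lower and none higher at the deposited FDR, and the members of the long runs had −0.68. Over all peaks the shares called were 1.21% higher and 5.81% lower for TDCIPP, and 0.301% higher and 12.5% lower for 5-AzaC. The flanking counts were not tested against these shares.

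For TDCIPP the change was positive at the highest densities of peaks and negative elsewhere. Neighbours were counted among the peaks of the same comparison, so peaks gained together after TDCIPP could raise each other's density. The classes were not recounted with the peaks of the other comparison. Peaks without another peak within 50 kb had a median change of −0.45, those with 1 to 4 neighbours −0.61 and those with 5 to 7 neighbours −0.56. Just outside the threshold, at 8 neighbours, the 147 peaks had a median change of −0.28 and 1.36% were called higher; just inside it, at 9 neighbours, the 62 peaks had −0.06 and 3.23%. With 10 to 12 neighbours the median was 0.70 and 30.1% were called higher, and with 13 or more it was 1.24 and 59.1%. Of the 111 members called higher, 31 had 10 to 12 neighbours and 78 had 13 or more. The share called lower for TDCIPP was 4.44% at no neighbours, 7.18% at 5 to 7, 0.971% at 10 to 12 and 0% at 13 or more. For 5-AzaC the median stayed between −0.70 and −0.56 in every class of density, and the share called higher was 4.13% at 10 to 12 neighbours and 1.79% at 13 or more. The share called lower for 5-AzaC was 9.35% at no neighbours, 13% at 1 to 4 and 16.3% at 5 to 7. It was 14.7% at 8 neighbours, 20.8% at 9, 9.92% at 10 to 12 and 25.9% at 13 or more. DMSO levels moved with density as well, with a median of 3.47 at no neighbours and 5.51 at 13 or more in the TDCIPP table; their part in the result was not tested.

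**Figure D5:**
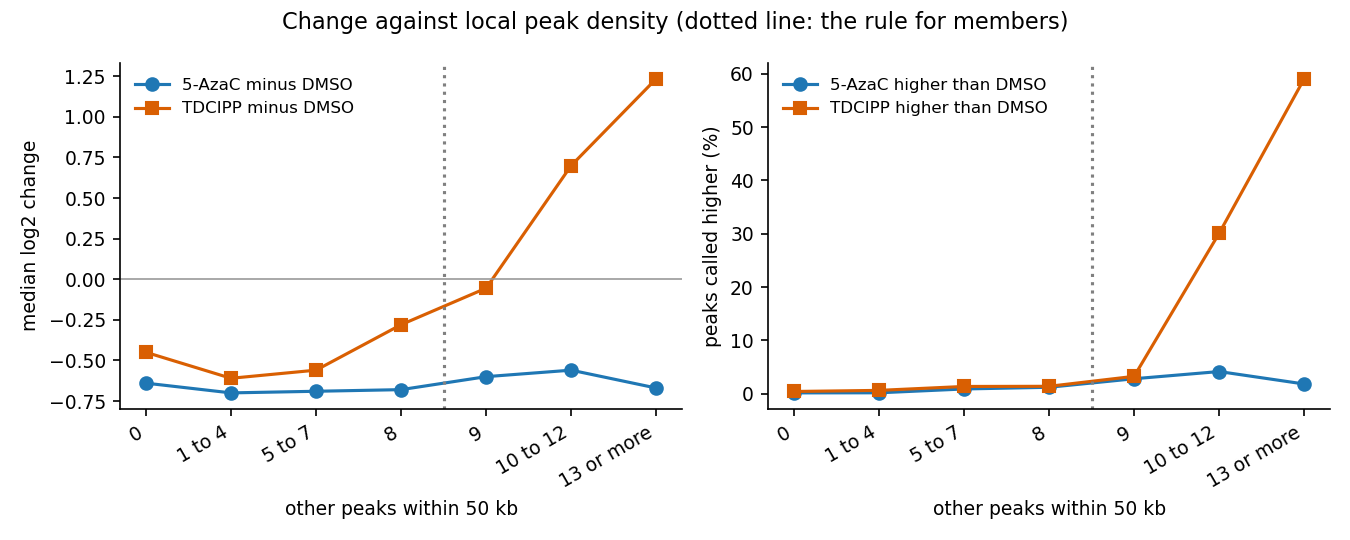
Median log2 change (left) and percentage of peaks called higher than DMSO at a deposited FDR under 0.05 (right) by the number of other peaks within 50 kb (horizontal axis), for 5-AzaC (circles) and TDCIPP (squares); the dotted line marks the rule of at least 9 neighbours. The TDCIPP median is −0.06 at 9 neighbours and 1.24 at 13 or more, and the 5-AzaC median stays below 0 throughout. Neighbours are counted within each comparison, so peaks gained in a treatment can add to the density.

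The higher calls of 5-AzaC lay in 3 runs, and the strongest run of all, 10a, held most of them. Run 10a, at chr10:16789066-16840734, had a median level of 8.46 in 5-AzaC embryos and 7.76 in DMSO embryos, all 12 members had a change between 0.40 and 0.87, and 6 were called higher. After TDCIPP its 12 members changed by −0.15 to 0.32, with a median of 0.10 and no call. The largest called increase of run 10a, at chr10:16794015-16794716, had 8.24 after 5-AzaC and 7.37 in DMSO in the authors' deposited table, a change of 0.87 at an FDR of 0.0161. Run 2d, at chr2:19436240-19487187, had 8 members with a median level of 6.98 after 5-AzaC and 6.38 in DMSO, changes between 0.38 and 0.81, and 2 called higher; its 4 members of the TDCIPP table had a median change of 0.10 and no call. Run 8d gave the remaining higher call for 5-AzaC, a peak at chr8:34771290-34773565 with 6.98 after 5-AzaC and 5.82 in DMSO in the authors' deposited table, a change of 1.15 at an FDR of 0.00744. The strongest peak of that run was not called: the authors' deposited table gives it a change of −0.68 (FDR 0.10).

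The last 3 peaks of run 15a had changes within the range of those of run 10a in both tables. Their median level was 8.60 after 5-AzaC and 8.13 in DMSO, a median change of 0.53 with none called higher, and 8.09 after TDCIPP and 8.12 in DMSO, a median change of 0.12. The other 19 members of run 15a had a median change of −0.67 for 5-AzaC, and the other 18 had 1.58 for TDCIPP with 16 called higher. They were singled out after their values were seen. Across all runs, 17 members of the 5-AzaC table had a level over both groups of at least 7, all 17 with a change above 0, with a median of 0.53 and 6 called higher. The level over both groups contains the treated samples, so this count favours increases. For TDCIPP 31 members reached that level, of which 26 had a change above 0 and 13 were called higher.

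Runs with fewer than 10 members held far fewer of the higher calls of TDCIPP than the long runs. The 71 such members of the TDCIPP table had a median change of −0.06, with 1 called higher and 1 lower. Of all peaks, 1.21% were called higher and 5.81% lower there. The 85 such members of the 5-AzaC table had −0.37, with 3 higher and 9 lower, and of all peaks 0.301% were higher and 12.5% lower. These counts are small and were not tested against those shares. The higher call of TDCIPP lay in run 5, whose 5 members had a median change of 1.14, with median levels of 5.44 after TDCIPP and 3.90 in DMSO; its 4 members of the 5-AzaC table had a median change of −1.12 and no call. The lower calls of TDCIPP were 1 in run 4 and 1 in the long run 8b. The peak of run 8b, at chr8:30903981-30904759, had 2.50 in TDCIPP embryos and 5.10 in DMSO embryos in the authors' deposited table, a change of −2.60 at an FDR of 0.000943. For 5-AzaC the same peak had 3.72 against 5.10 in DMSO in the authors' deposited table, a change of −1.38 at an FDR of 0.0174. In run 4 the peak at chr4:148365-149571 had 4.61 after TDCIPP and 6.01 in DMSO in the authors' deposited table, a change of −1.40 at an FDR of 0.0213.

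The extremes of the run medians came from small or weak runs. For TDCIPP the highest was run 25b, a single peak outside the authors' adjustment with a level of 2.15 after TDCIPP and −0.41 in DMSO in the authors' deposited table, a change of 2.56, and the lowest were run 2b (−1.90) and run 1c (−1.15), also single peaks outside it, and run 22b (−0.97). For 5-AzaC the highest was run 2c, found in that table alone, whose 8 members had a median change of 1.04 within a range from −1.53 to 1.67 and no call. The lowest were run 18a (−1.28, 1 member, no call), run 6b (−1.17, both of its members called lower) and run 8a (−1.13, its single member called lower). Runs found in one table only were small throughout: 9 runs with 31 members for 5-AzaC and 7 runs with 16 members for TDCIPP, none with more than 8 members.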

How the data were processed

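H2A.Z CUT&Tag libraries of zebrafish embryos were grouped from their titles and treatment labels. Per the submitters' processing notes, Bowtie2, Picard, MACS2, deepTools and DiffBind and the build GRCz11 were used; versions, order, settings and the handling of reads that match several places are not given in the sources used here. Per the file headers, the authors deposited for each consensus peak log2 levels for all samples and for each group, a log2 change, a p-value and an FDR. The deposited change equals the treated minus the DMSO level within 0.01. DMSO levels were equal in both tables for 5294 of 5295 peaks with identical coordinates. An FDR of 1 marks peaks outside the adjustment. Whether starts are 0-based or 1-based is not stated. Positions are given as deposited, and sequences and genes under the peaks are not reported here.

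Python 3.11.15, numpy 2.4.6, pandas 2.3.3 and matplotlib 3.10.9 were used. The unit of these tables differs from the counts the design allowed for, so no count model was fitted; calls are the deposited FDR under 0.05. Run finding was tested on simulated tables. Medians and shares over members are descriptions, since peaks are not replicates. Named runs are the 8 with most members, the 5 long ones with the most regular steps, the 3 highest and 3 lowest medians and the 3 with most calls each way in each table. Named peaks are the strongest and the largest called changes of these. The members, lists and alternatives were chosen with earlier results of these data known. Other windows, thresholds, scalings and subsets of runs were tried. Without single-library values no replicate could be left out.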

Additional observations from a re-analysis of the deposited data

How the results depend on the processing

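No paired analysis was possible because the tables hold no value for a single library; leaving out a library, other normalizations and another count test could not be run for the same reason. Of 109 alternatives of the main values, 60 stayed close, 46 moved and 3 turned direction. All 50 alternatives for single long runs kept the median within the interval computed for the run's median. Most of these 50 held exactly the same peaks as the main value and could not move, so they say little about stability. The cause of each move was not tested. Percentages in parentheses are for the whole table under the same setting.

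For TDCIPP the values moved with the density required. The median was −0.31 at 6 neighbours, −0.47 in a 100 kb window, 1.29 at 14 neighbours and 1.41 in a 25 kb window; members called higher were 9.65%, 6.27%, 65.7% and 71.1%, and called lower 6.06%, 6.76%, 0% and 0%, in 296, 393, 9 and 10 runs. Without run 15b the median was 0.79 and 26.6% were called higher; in runs of at least 10 members they were 1.12 and 48.7%. Above the median level 43.7% were called higher. The median was 1.48 relative to that of all peaks, 0.13 as the median of run medians, and 0.85 in the runs of the other table. Called higher were 22.2% (0.417%) at an FDR under 0.01, 43.8% (2%) under 0.1, 31.3% (1.02%) with all peaks adjusted and 50.2% (4.11%) at an unadjusted p under 0.05.

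For 5-AzaC the median was 0.07 relative to that of all peaks, and −0.69 in a 100 kb window. Members called lower were 28% at 14 neighbours, 1.31% (2.06%) at an FDR under 0.01, 32.8% (22.4%) under 0.1, 13.4% (9.03%) with all peaks adjusted, 37.4% (28%) at an unadjusted p under 0.05 and 9.84% (10.7%) with a change of at least 1. Called higher were 1.34% at 6 neighbours, 0% at 14, 1.47% in a 25 kb and 0.777% in a 100 kb window, 0.328% (0.0167%), 6.56% (0.683%) and 7.54% (1.02%) at the FDR and p settings, and 0.328% (0.107%) with a change of at least 1. Runs numbered 339, 6, 8 and 439 at 6 and 14 neighbours and in 25 and 100 kb windows, and 19 were regular at a tolerance of 20%. Depths are unknown, so what the libraries could detect was not assessed.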

Other observations

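Run 13 may hold a finer pattern than its even spacing. Over its 11 broad peaks the distance from one start to the next varied with an SD of 93.5 bp around 4681 bp for 5-AzaC and 84.6 bp around 4681 bp for TDCIPP. The distance from a start to the third start after it varied less, with an SD of 41.0 bp around 14034 bp and 37.3 bp around 14031 bp. To the second start the SD was 76.8 bp for 5-AzaC and 71.1 bp for TDCIPP, and to the fourth 96.9 and 86.5 bp. Each place in a unit of 3 peaks rests on 3 or 4 steps. Counted in units of 3 peaks, the first step measured 4621 to 4766 bp for 5-AzaC and 4645 to 4769 bp for TDCIPP, the second 4560 to 4577 bp for 5-AzaC and 4576 to 4594 bp for TDCIPP, and the third 4759 to 4799 bp and 4771 to 4775 bp. The 3 distances summed share their end points, both tables describe much the same peaks, the first step varied more than the other two, and the pattern was noticed in the data and not tested.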
